A study of Mus musculus with 18 samples.

Results

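The comparison is of the span between the first and last day of a time course of Wt1-GFP bright cells from the ventricles of the embryonic mouse heart: the 3 arrays of embryonic day 16.5 (E16.5) against the 3 arrays of E11.5, 6 of 18 arrays in all. Both groups are Wt1GFPKI embryos, in which green fluorescent protein sits in the Wt1 gene. Ventricles were dispersed by enzymes into single cells, the brightest green cells were sorted by flow cytometry, and total RNA was hybridised to Illumina bead arrays. No cells without the knock-in allele and no cells of lower green signal are compared here, and the labels give neither the number of embryos behind an array nor their strain or litter. The p-values therefore cover only how these particular arrays differ, and that may be technical variation. The members are all 10813 genes that could be measured. Of these, 2878 were sorted into 57 gene families that lie mostly outside the usual marker lists, and the remaining genes are described by their largest changes.

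The epicardium is the cell sheet that covers the heart. During the days covered here some of its cells are known to leave the sheet, enter the muscle wall and become fibroblasts and mural cells of the coronary vessels, while the vessels themselves spread through the wall. Wt1 is best known there as an epicardial gene, and a share of the endothelial cells of the embryonic mouse heart is known to express it too, so a gate on green signal alone can hold several cell types.

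Each value is a deposited probe intensity, given here as its log2 and called a level, and a difference is E16.5 minus E11.5 on that scale, as mean ± SE from limma's fit, with p-values adjusted by Benjamini-Hochberg over all genes tested. Background is still in the values. It had its mode at 6.63 on the log2 scale, a level under the floor of 6.77 cannot be told from it, and differences of dim genes understate the change in RNA. Arrays of the same stage had pairwise Pearson correlations across genes of 0.992 to 0.993 at E11.5 and 0.976 to 0.991 at E16.5. In these bulk samples fewer cells of a type and less RNA per cell cannot be told apart.

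Marker lists of cell types moved between the stages. Of 23 measured endothelial and endocardial markers 21 rose and 0 fell, and their summed intensity over background went from 2387 to 2441 on the E11.5 arrays to 31052 to 38487 on the E16.5 arrays. At E11.5 no array was above the floor for Cdh5, Pecam1, Tie1, Cd34, Sox17, Sox18, Tal1 and Vwf. Of 20 epicardial and mesothelial markers 4 rose and 10 fell (15601 to 16418 against 9306 to 12610). Those that rose were Msln, Dmkn, Cldn15 and Krt19, by 2.54, 2.33, 1.86 and 0.68. Bnc2, Calb2 and Lhx9 were under the floor on all E16.5 arrays, though Bnc2 differed by only -0.16. Of 13 fibroblast markers 8 rose and 2 fell. Of 10 erythroid markers 6 rose and 1 fell (80.0 to 1093 against 21765 to 34474). Only 6 of the 16 leukocyte markers were measured, of which 4 rose and 0 fell (35.7 to 48.5 against 429 to 655). Laptm5 rose most, by 2.29, ahead of Mrc1, Lyl1 and Csf1r at 0.57, 0.45 and 0.33. Aif1 and Coro1a were not called. The 25 cardiomyocyte markers summed to 14721 to 21077 at E11.5, and to 81360 on E16.5 replicate 1 against 26488 and 19771 on the other E16.5 arrays, so this array stands apart. The 11 smooth muscle and pericyte markers did likewise, at 10815 on that array against 5587 and 4323. Of 11 neural crest and Schwann cell markers only Ednrb was measured, and it rose. What part these cell types had in the differences below was not tested. Wt1 itself was not analysed here.

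At an adjusted p under 0.05 limma called 1729 genes higher at E16.5 (16% of those tested) and 2028 lower (18.8%), either way 34.7%. At least 2-fold differences were held by 453 of the higher genes (4.19% of those tested) and by 131 of the lower (1.21%). Large changes were upward: 128 genes rose at least 4-fold against 10 that fell as much, and 38 rose at least 8-fold against 0. Of the 584 genes with a 2-fold difference 571 stayed called whichever of the 6 arrays was left out. Without E16.5 replicate 1 there were 471 genes at least 2-fold higher and 139 lower. Of the 453 higher genes 83 were not above the floor on any E11.5 array. Likewise 3 of the lower genes were not above it on any E16.5 array. For such genes the text gives a bound, "at least N-fold", computed as the brighter stage's mean over the floor. Where only 1 or 2 of the 3 arrays of the dimmer stage were above the floor, their number stands beside the p-value and the difference may understate the change. Just inside and outside the 2-fold limit were Dll4 at 1.0001 and Gnai2 at 0.998, and on the other side Tulp2 at -1.001 and Arid3b at -0.9997. With cyclic loess on top of the deposited values 2123 genes were higher and 1401 lower, or 19.63% and 12.96% of those tested. The share of calls that were upward thus went from 46.0% to 60.2%. Family counts under that scaling are given where they change the balance.

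**Figure D1:**
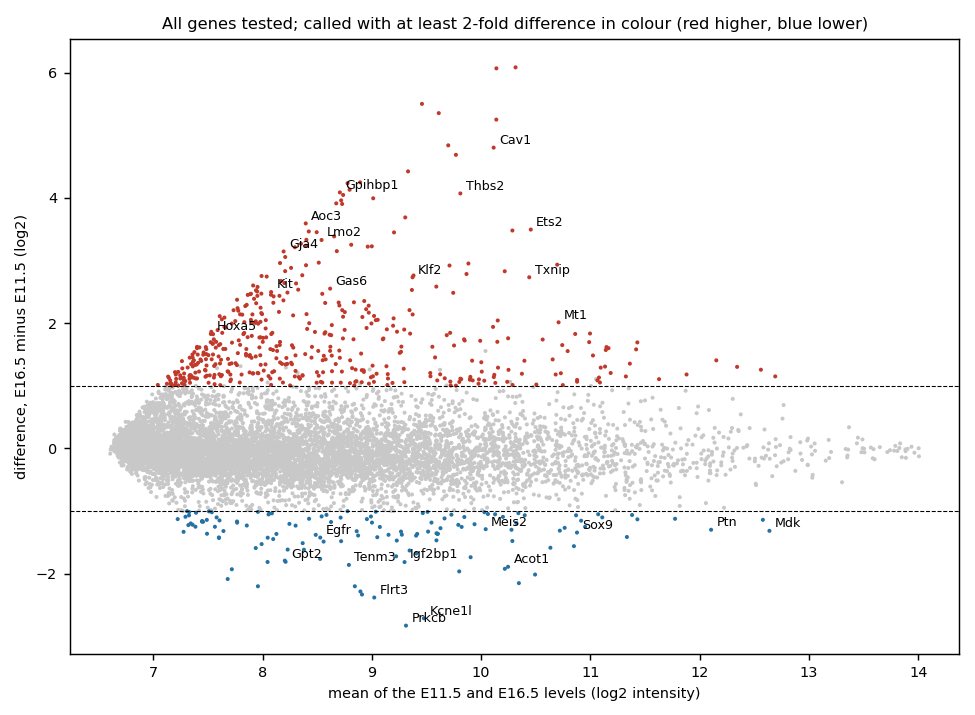
Difference between E16.5 and E11.5 (log2, vertical axis) against the mean level of both stages (log2 intensity, horizontal axis) for the 10813 genes tested, 1 point a gene. The 453 genes called at least 2-fold higher are red and the 131 at least 2-fold lower are blue; the dashed lines mark 2-fold, and the red points reach much further from 0 than the blue.

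The 57 families hold 2878 of the genes tested and 211 of the 584 with a 2-fold difference. They are described by counts beside the shares of all genes, 16% higher and 18.8% lower, and by the median difference beside that of all genes, -0.03. Family counts with cyclic loess are to be read beside the shares of all genes under that scaling, 19.63% higher and 12.96% lower. The largest shares of risen members were in GIMAP and guanylate-binding GTPases, in tetraspanins, in antigen presentation genes, in annexins, S100 proteins and galectins, in connexins and in cytokine receptors, as the plot of shares by family shows. The largest shares of fallen members were in cytosolic tRNA synthetases, nucleotide and serine synthesis genes, DEAD box helicases, ribosome biogenesis genes and chromatin remodellers.

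**Figure D2:**
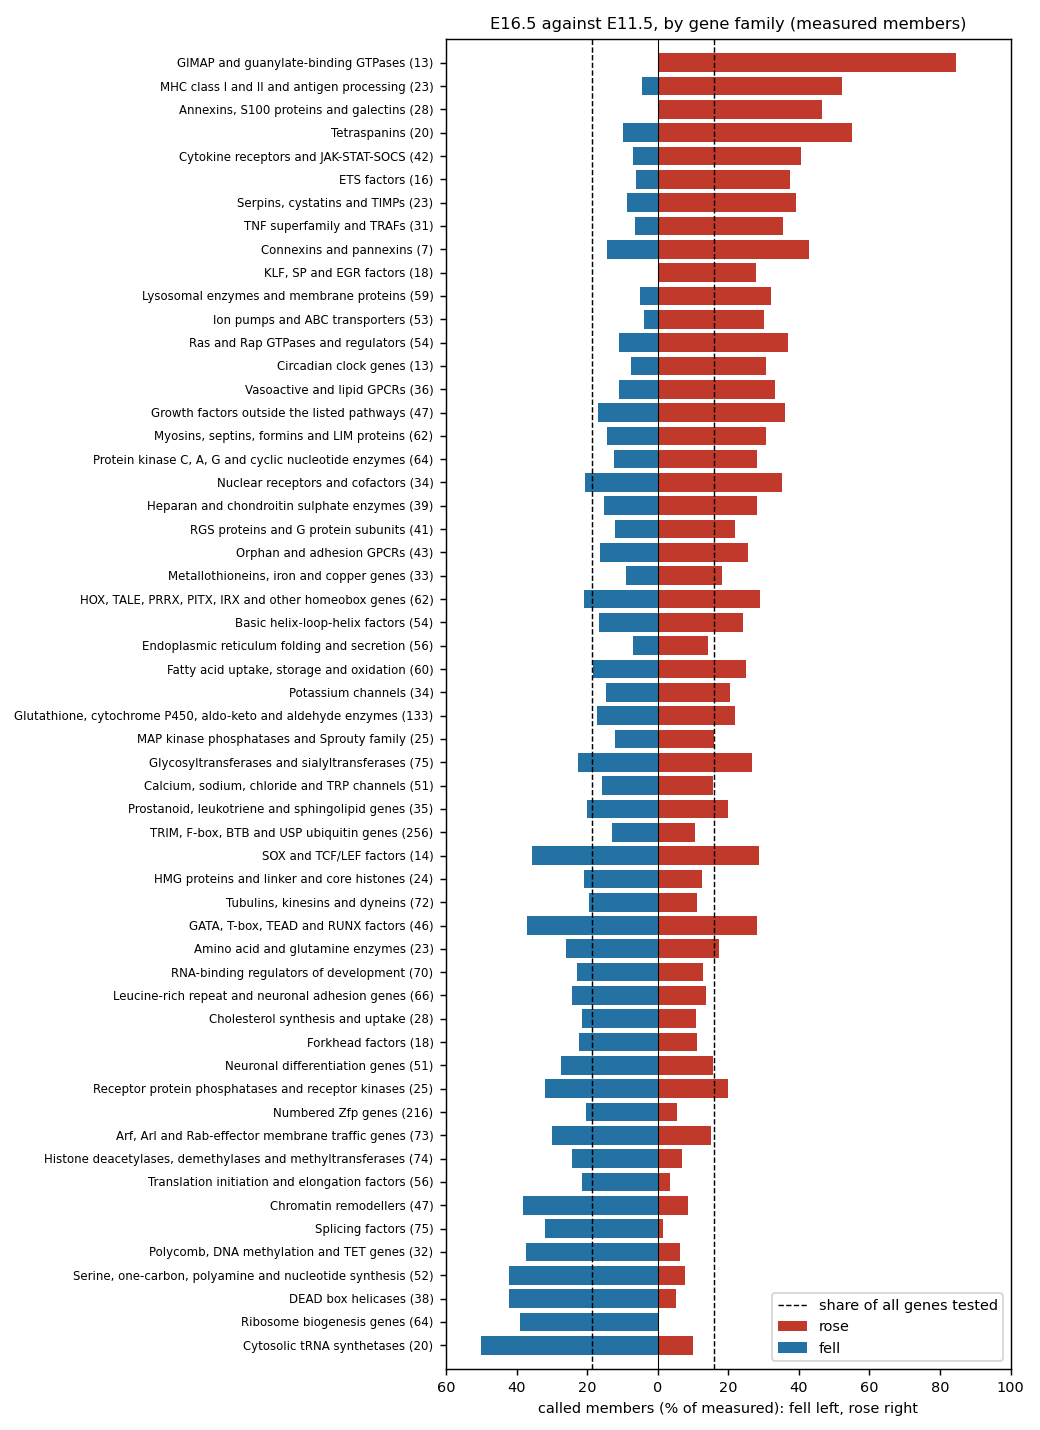
Share of measured members of 56 of the 57 families that rose (red, to the right) or fell (blue, to the left) between E11.5 and E16.5, in percent, with the number of measured members in brackets. The dashed lines are the shares among all genes tested, 16% higher and 18.8% lower; families are ordered by the difference of their shares.

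The GTPases of immunity-associated proteins (GIMAP) are best known from lymphocytes, and the guanylate-binding proteins are induced by interferon. Together they form a family of 26 genes on the array, of which 13 were measured. Of these 13, 11 rose and 0 fell (median difference 0.49). Gbp2 had levels of 7.49, 7.62 and 7.49 at E11.5 and 9.28, 9.86 and 10.44 at E16.5, a rise of 2.33 ± 0.33 (adjusted p = 5.9e-05). Its E16.5 levels were spread over more than 1 log2 unit and all lay above those of E11.5, as the rule for naming genes required. Gimap6 stood at 6.83, 6.78 and 6.74 at E11.5 and 8.98, 9.39 and 8.94 at E16.5. It rose by 2.32 ± 0.18 (adjusted p = 1.9e-07, 2 of 3 E11.5 arrays above the floor), and Gimap1 rose by 2.14 ± 0.18 (adjusted p = 4.8e-07, 1 of 3 E11.5 arrays above the floor) on its brightest probe, while the other kept probe differed by 0.62. Gimap8 rose by 1.02 ± 0.10 (adjusted p = 2.8e-06, 1 of 3 E11.5 arrays above the floor) and the immunity-related GTPase gene Irgm2, at 6.91, 6.73 and 6.89 at E11.5 and 7.70, 8.08 and 8.52 at E16.5, by 1.25 ± 0.19 (adjusted p = 1.3e-04, 2 of 3 E11.5 arrays above the floor). The E11.5 levels of Gimap6 lay at the floor, and its E16.5 levels well above it. Gimap1 and Gimap6 had covered at least 50% of their difference from E13.5 on, while Gbp2 did so only at E16.5.

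Of these, Gbp2 and Irgm2 hold the letters of an interferon-stimulated response element (searched on both strands as GAAA, any 2 bases, GAAA) in the 250 bases before to 50 bases after the annotated start, as does the galectin gene Lgals9, which also rose (at least 2.08-fold, adjusted p = 1.5e-05). Their stretches of 150 bases are shown as examples of risen genes in which the letters lie close to the start. Lgals9 belongs to the family of annexins, S100 proteins and galectins, and not to that of the GTPases. Sequences are RefSeq's (GRCm38.p6), 5′ to 3′ on the gene's strand, with the match in capitals.
Gbp2: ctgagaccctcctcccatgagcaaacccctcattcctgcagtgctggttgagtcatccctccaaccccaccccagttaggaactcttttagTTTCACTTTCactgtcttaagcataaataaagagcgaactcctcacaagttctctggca
Irgm2: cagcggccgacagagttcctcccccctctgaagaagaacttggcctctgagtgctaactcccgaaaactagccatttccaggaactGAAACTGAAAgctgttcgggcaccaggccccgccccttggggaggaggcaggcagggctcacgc
Lgals9: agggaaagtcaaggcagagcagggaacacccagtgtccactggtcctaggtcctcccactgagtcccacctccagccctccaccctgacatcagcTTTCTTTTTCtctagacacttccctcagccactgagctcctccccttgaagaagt
They lie at chr3:142620513-142620662 on the plus strand, chr11:58214827-58214976 on the plus strand and chr11:78984925-78985074 on the minus strand. The match begins 59, 64 and 55 bases before the start, and Lgals9 has another 15 bases after it. The same letters were in 16 of 337 promoters of genes at least 2-fold higher (4.75%), in 5.71% of those at least 2-fold lower and in 2.79% of all 8738 tested genes with a promoter in the table. A match of letters is a description and not evidence of a bound factor.

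In the family of histocompatibility and antigen-processing genes 12 of 23 members rose and 1 fell (median difference 0.19). The class I gene H2-D1, whose relatives its probes may not tell apart, stood at 6.97, 7.01 and 6.94 at E11.5 and 8.87, 9.01 and 8.38 at E16.5. It rose by 1.78 ± 0.22 (adjusted p = 1.5e-05). The immunoproteasome subunit gene Psmb10 rose by 1.05 ± 0.19 (adjusted p = 5.5e-04). Cytokine receptors with their kinases, STAT factors and feedback inhibitors had many risen members as well: 17 of 42 members rose and 3 fell (median difference 0.12, 5 fell with the replicate number as a block). Stat3, the factor behind many of these receptors, stood at 9.01, 8.87 and 9.22 at E11.5 and 9.95, 10.26 and 10.44 at E16.5 and rose by 1.18 ± 0.21 (adjusted p = 5.4e-04), while the other kept probes differed by 0.33 to 1.03. Cish, a feedback inhibitor that STAT factors switch on, rose by 1.23 ± 0.15 (adjusted p = 1.1e-05) from levels that were above background on every array. The receptor genes Il18r1 (at least 1.92-fold, adjusted p = 4.2e-06) and Il27ra, at 1.04 ± 0.08 (adjusted p = 1.9e-07, 1 of 3 E11.5 arrays above the floor), rose too, and the other kept probe differed by 0.42 for Il18r1 and the other kept probe differed by 0.09 for Il27ra. In the tumour necrosis factor family 11 of 31 members rose and 2 fell (median difference 0.09). Cd40, a co-stimulatory receptor of antigen-presenting cells and endothelium, rose by 1.13 ± 0.09 (adjusted p = 2.0e-07), while the other kept probes differed by 0.21 to 0.33, and Tnfrsf19, a receptor best known from the developing nervous system and skin, fell by 1.03 ± 0.09 (adjusted p = 4.1e-07). Leukocyte markers rose in the same arrays (4 of the 6 that were measured), and endothelial ones too (21 of 23). The part of these cell types in the rises was not tested.

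Receptors for vasoactive peptides and lipids divided by member: 12 of 36 members rose and 4 fell (median difference 0.10). Ramp2, the partner protein that turns the calcitonin receptor-like receptor into an adrenomedullin receptor, stood at 8.48, 8.41 and 8.33 at E11.5 and 11.31, 11.35 and 11.42 at E16.5. It rose by 2.95 ± 0.16 (adjusted p = 9.6e-09). Its levels within a stage lay close together, and it had covered at least 50% of the difference from E12.5 on. Lpar4, a receptor for lysophosphatidic acid, was bright at both stages, at 10.38, 10.53 and 10.83 at E11.5 and 12.09, 12.17 and 12.57 at E16.5, and rose by 1.69 ± 0.21 (adjusted p = 1.6e-05). Ednrb, an endothelin receptor, rose by 2.53 ± 0.26 (adjusted p = 2.5e-06) on its brightest probe, while the other kept probes differed by 0.15 to 1.12. The apelin receptor gene Aplnr went from under the floor to 8.35, 8.59 and 8.92, at least 3.61-fold higher (adjusted p = 2.0e-07). Ramp2 and Ednrb are also in the marker lists of endothelial and neural crest cells, and the endothelial marker sum rose on the same arrays. Among orphan and adhesion-type receptors 11 of 43 members rose and 7 fell (median difference 0.02, 3 fell without E11.5 replicate 1 or without E16.5 replicate 1, 4 fell without E11.5 replicate 3 or without E16.5 replicate 2 or 3, with cyclic loess 14 rose and 2 fell). Adgrl4, an adhesion receptor of endothelial cells, was at least 4.19-fold higher (adjusted p = 1.8e-07), and Adgre5, the CD97 gene of blood cells, stood at 6.84, 6.96 and 6.90 at E11.5 and 8.84, 9.06 and 8.85 at E16.5. It rose by 2.01 ± 0.12 (adjusted p = 2.0e-08). Adgrd1 was at least 2.74-fold higher (adjusted p = 1.5e-05), though the other kept probe differed by 0.07. Among G protein subunits and RGS proteins, which shorten G protein signals, 9 of 41 members rose and 5 fell (median difference 0.01, with cyclic loess 12 rose and 4 fell). Rgs16 rose by 2.05 ± 0.22 (adjusted p = 3.9e-06) from near the floor, at 7.03, 6.95 and 7.04 at E11.5 and 8.84, 9.26 and 9.06 at E16.5.

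Receptor tyrosine kinases and receptor phosphatases went both ways, and 5 of 25 members rose and 8 fell (median difference -0.10, 3 rose without E16.5 replicate 2). Kit, the stem cell factor receptor, stood at 6.85, 6.74 and 6.89 at E11.5 and 9.16, 9.41 and 9.41 at E16.5 and rose by 2.50 ± 0.25 (adjusted p = 2.6e-06, 2 of 3 E11.5 arrays above the floor). The phosphatase genes Ptprb, which acts at endothelial junctions, and Ptprm rose by 2.15 ± 0.24 (adjusted p = 7.9e-06) and 1.67 ± 0.14 (adjusted p = 4.2e-07, 1 of 3 E11.5 arrays above the floor), although for Ptprm the other kept probes differed by 0.01 to 0.15. Egfr, the epidermal growth factor receptor, stood at 9.06, 9.20 and 9.46 at E11.5 and 7.60, 7.76 and 8.09 at E16.5. It fell by 1.42 ± 0.12 (adjusted p = 5.3e-07), with at least 50% of the fall reached from E12.5 on. Ddr1, a kinase receptor for collagen best known from epithelia, stood at 9.77, 9.86 and 9.47 at E11.5 and 8.56, 8.63 and 8.14 at E16.5. It fell by 1.25 ± 0.26 (adjusted p = 0.0016), while the other kept probe differed by -0.16.

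Growth factor genes outside the pathways of TGF-beta, FGF, PDGF, Wnt and VEGF were mixed as well, and 17 of 47 members rose and 8 fell (median difference 0.05). Gas6 and Pros1, the ligands of the TAM receptor kinases, rose together. Gas6 stood at 7.30, 7.28 and 7.45 at E11.5 and 9.70, 9.95 and 10.03 at E16.5 and rose by 2.55 ± 0.18 (adjusted p = 8.8e-08), and Pros1 rose by 1.34 ± 0.11 (adjusted p = 4.8e-07). Stc1, which encodes a secreted glycoprotein hormone, rose by 2.16 ± 0.18 (adjusted p = 4.6e-07), and Ogn, a small proteoglycan of connective tissue, by 1.70 ± 0.19 (adjusted p = 6.7e-06) on its brightest probe, while the other kept probes differed by 0.11 to 0.15. Mdk and Ptn make up the midkine family of heparin-binding factors, and both fell. Mdk stood at 13.26, 13.16 and 13.46 at E11.5 and 11.97, 12.08 and 11.88 at E16.5. It fell by 1.32 ± 0.09 (adjusted p = 8.2e-08), while the other kept probes differed by -1.66 to -0.39. Ptn stood at 12.66, 12.75 and 12.84 at E11.5 and 11.59, 11.37 and 11.40 at E16.5. It fell by 1.30 ± 0.14 (adjusted p = 5.3e-06). Both stayed near their E11.5 level until E13.5, as the plot of genes lower at E16.5 shows, and the hepatocyte growth factor gene Hgf fell by 1.0 ± 0.11 (adjusted p = 8.3e-06) with most of the fall by E13.5.

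Gap junction genes made up the smallest family, in which 3 of 7 members rose and 1 fell (median difference 0.09, 2 fell with the replicate number as a block). Gja4, an arterial connexin, went from no E11.5 array above the floor to 9.35, 9.69 and 10.26, at least 7.97-fold higher (adjusted p = 2.9e-08). Gja5, a connexin of arteries and of the conduction system, stood at 7.54, 7.67 and 7.73 at E11.5 and 9.17, 9.53 and 10.16 at E16.5 and rose by 1.97 ± 0.23 (adjusted p = 1.1e-05). Gja1, the widely used connexin of heart and fibroblasts, rose from an already bright level, at 11.04, 11.05 and 11.13 at E11.5 and 12.33, 12.01 and 12.21 at E16.5, by 1.11 ± 0.10 (adjusted p = 6.7e-07). The 3 that rose had reached at least 50% of the difference from E14.5 on.

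In the potassium channel family 7 of 34 members rose and 5 fell (median difference 0.01, 3 fell without E11.5 replicate 1). Kcne1l, the gene of an accessory subunit on the X chromosome, fell by 2.71 ± 0.15 (adjusted p = 1.3e-08), more than any other gene tested except Prkcb. Its levels were 10.71, 10.76 and 11.03 at E11.5 and 8.17, 8.15 and 8.05 at E16.5. Kcnab1, another accessory subunit, fell by 1.32 ± 0.13 (adjusted p = 1.4e-06), while the other kept probes differed by -0.83 to -0.09, and the pore subunit gene Kcnk6 rose by 1.48 ± 0.19 (adjusted p = 2.2e-05). Other ion channels had 8 risen and 8 fallen of 51 members (median difference 0.02, 5 fell without E11.5 replicate 2 or without E16.5 replicate 1, with cyclic loess 9 rose and 5 fell). Clic3, a chloride intracellular channel gene, was at least 5.44-fold higher (adjusted p = 5.1e-07). The genes of calcium release and store-operated entry Itpr2 and Orai1 rose by 1.34 ± 0.24 (adjusted p = 5.7e-04) and 1.22 ± 0.14 (adjusted p = 8.2e-06), and the T-type calcium channel gene Cacna1h fell by 1.01 ± 0.16 (adjusted p = 1.6e-04). Ion pumps and ABC transporters mostly rose where they were called: 16 of 53 members rose and 2 fell (median difference 0.05, 0 fell without E16.5 replicate 1, 1 fell without E11.5 replicate 1 or without E16.5 replicate 2, with cyclic loess 17 rose and 0 fell). Fxyd5, a regulator of the sodium pump, stood at 6.78, 6.74 and 6.73 at E11.5 and 9.06, 9.59 and 9.03 at E16.5. It rose by 2.47 ± 0.22 (adjusted p = 6.0e-07, 1 of 3 E11.5 arrays above the floor), and the pump subunit gene Atp1b1 rose by 1.12 ± 0.24 (adjusted p = 0.0019). Abcc9, the sulphonylurea receptor of muscle and pericytes, rose by 1.61 ± 0.10 (adjusted p = 1.7e-08, 2 of 3 E11.5 arrays above the floor), while the other kept probe differed by 0.32.

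Protein kinases C, A and G with their cyclases, phosphodiesterases and anchors held members that moved in opposite directions: 18 of 64 members rose and 8 fell (median difference 0.05). Prkcb, a protein kinase C isoform, had the widest fall of any gene tested. It stood at 10.71, 10.67 and 10.80 at E11.5 and 7.94, 7.95 and 7.80 at E16.5. It fell by 2.83 ± 0.15 (adjusted p = 7.6e-09), and its other kept probes differed by -1.30 to -1.26. Its relative Prkch was at least 2.09-fold higher (adjusted p = 2.5e-05), while the other kept probe differed by 0.19. In the nitric oxide and cyclic GMP route, the synthase gene Nos3 of endothelium went from under the floor to 9.15, 9.49 and 9.47, at least 6.05-fold higher (adjusted p = 5.3e-07). The nitric oxide receptor subunit gene Gucy1a1, bright at 12.35, 12.18 and 12.48 at E11.5 and 11.002, 11.03 and 11.60 at E16.5, fell by 1.12 ± 0.17 (adjusted p = 8.6e-05), and the cyclic GMP-dependent kinase gene Prkg2 by 1.17 ± 0.07 (adjusted p = 2.7e-08). Of the cyclic AMP genes, the cyclase gene Adcy4 rose by 1.45 ± 0.20 (adjusted p = 4.8e-05) and the phosphodiesterase gene Pde4b by 1.37 ± 0.26 (adjusted p = 6.7e-04), while the other kept probe differed by 0.11, while the kinase anchor gene Akap5 fell by 1.05 ± 0.08 (adjusted p = 2.6e-07). Among MAP kinase phosphatases and Sprouty genes, feedback inhibitors of receptor kinases, 4 of 25 members rose and 3 fell (median difference 0.05). Dusp2 was at least 4.35-fold higher (adjusted p = 2.2e-05), Dusp1 rose by 1.35 ± 0.19 (adjusted p = 5.7e-05), and Dusp4 stood at 8.89, 8.31 and 8.22 at E11.5 and 7.41, 7.20 and 7.11 at E16.5 and fell by 1.23 ± 0.19 (adjusted p = 1.1e-04).

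Of the small GTPase families, Ras and Rap genes with their regulators had more risen members than the share of all genes: 20 of 54 members rose and 6 fell (median difference 0.17). Rasip1, which is needed for blood vessel lumens in mice, stood at 6.77, 6.64 and 6.78 at E11.5 and 9.08, 9.24 and 9.03 at E16.5. It rose by 2.39 ± 0.22 (adjusted p = 8.2e-07, 1 of 3 E11.5 arrays above the floor). The exchange factor genes Rasgrp3 and Rapgef5 rose by 2.36 ± 0.23 (adjusted p = 1.9e-06) and 1.92 ± 0.26 (adjusted p = 4.9e-05). On the lower side Rap2c fell by 1.21 ± 0.14 (adjusted p = 7.3e-06), Rasl11a fell by 1.04 ± 0.12 (adjusted p = 8.4e-06) and Ralgps2 fell by 1.0 ± 0.14 (adjusted p = 7.2e-05). The membrane traffic family of Arf GTPases, sorting nexins and SNARE genes gave 11 risen and 22 fallen of 73 members (median difference -0.08). With cyclic loess 17 rose and 17 fell, so the balance of its counts depends on the scaling. In it Rab11fip5 rose by 1.77 ± 0.15 (adjusted p = 4.5e-07) and Stxbp2, a syntaxin-binding gene, fell by 1.09 ± 0.12 (adjusted p = 4.0e-06).

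Most transcription factor families held members that moved in either direction. In the SOX and TCF/LEF family 4 of 14 members rose and 5 fell (median difference -0.11). The 3 members of the SOX group that acts in endothelium rose: Sox7 stood at 6.73, 6.63 and 6.78 at E11.5 and 10.42, 10.68 and 10.80 at E16.5 and rose by 3.91 ± 0.27 (adjusted p = 7.1e-08, 1 of 3 E11.5 arrays above the floor), while the other kept probes differed by 0.29 to 2.65, and Sox18 and Sox17 were at least 8.76-fold and 4.99-fold higher (adjusted p = 3.5e-07 and 6.6e-08). Sox9, a regulator of cartilage and of the heart's mesenchymal cells, stood at 11.64, 11.55 and 11.46 at E11.5 and 10.15, 10.34 and 10.13 at E16.5. It fell by 1.34 ± 0.12 (adjusted p = 1.1e-06), and its partner in cartilage Sox5 fell by 1.17 ± 0.17 (adjusted p = 7.3e-05). Of the ETS factors, several of which act in vessels, 6 of 16 members rose and 1 fell (median difference 0.10, 2 fell without E11.5 replicate 2 or without E16.5 replicate 1). Ets2 stood at 8.72, 8.67 and 8.73 at E11.5 and 12.23, 12.09 and 12.28 at E16.5. It rose by 3.50 ± 0.19 (adjusted p = 8.0e-09), and it was above the floor on every array. Ets1 rose by 1.72 ± 0.28 (adjusted p = 1.9e-04) on its brightest probe, though the other kept probes differed by 0.10 to 0.22. Among KLF, SP and EGR factors 5 of 18 members rose and 0 fell (median difference 0.26, with cyclic loess 8 rose and 0 fell). Klf2, which responds to blood flow in endothelium, stood at 8.04, 8.16 and 7.82 at E11.5 and 10.36, 10.80 and 11.05 at E16.5 and rose by 2.73 ± 0.23 (adjusted p = 4.3e-07), and kept at least 50% of the rise only from E15.5 on. Klf4 rose by 1.63 ± 0.15 (adjusted p = 7.1e-07), likewise late, and Klf9, a target of glucocorticoid and thyroid hormone, by 1.24 ± 0.18 (adjusted p = 6.6e-05). The summed endothelial markers rose on the same arrays, from at most 2441 to at least 31052, and their part in the rises of SOX, ETS and KLF genes was not tested.

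Among homeobox genes 18 of 62 members rose and 13 fell (median difference 0.0027). Meox2 and Meox1, a pair that acts in somites, were at least 4.54-fold and 2.53-fold higher (adjusted p = 2.3e-07 and 9.1e-08), and neither was above the floor on any E11.5 array. Hoxa5 went from under the floor to 8.35, 8.50 and 8.48, at least 3.18-fold higher (adjusted p = 6.9e-06). Hhex, a factor of blood and endothelial progenitors and liver, rose by 2.02 ± 0.17 (adjusted p = 4.0e-07), and Hlx was at least 3.15-fold higher (adjusted p = 9.9e-06). Meis2, which patterns limbs and outflow tract with HOX proteins, stood at 10.58, 10.65 and 10.83 at E11.5 and 9.22, 9.31 and 9.67 at E16.5. It fell by 1.29 ± 0.15 (adjusted p = 7.2e-06).

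In the basic helix-loop-helix family 13 of 54 members rose and 9 fell (median difference 0.02). Tcf15, which is known from somites and from capillary endothelium of the heart, was at least 3.8-fold higher (adjusted p = 1.4e-07). Ebf3 stood at 8.02, 8.09 and 8.37 at E11.5 and 10.11, 10.47 and 10.14 at E16.5. It rose by 2.08 ± 0.11 (adjusted p = 7.6e-09), while the other kept probe differed by 0.57, and its relative Ebf2 was at least 2.28-fold higher (adjusted p = 1.2e-07). Tcf4, an E protein, was bright at both stages and rose by 1.48 ± 0.15 (adjusted p = 3.0e-06), while the other kept probe differed by 0.03. Tcf21 of epicardial and fibroblast progenitors, which is also in 2 marker lists, fell by 1.48 ± 0.17 (adjusted p = 1.1e-05). A mixed family of GATA, T-box, TEAD, RUNX and NFI factors had 13 risen and 17 fallen of 46 members (median difference -0.04). With cyclic loess 13 rose and 12 fell, so the balance of its counts depends on the scaling. Nfix, a member of the NFI group, stood at 8.06, 7.78 and 8.12 at E11.5 and 9.84, 9.95 and 9.96 at E16.5. It rose by 1.92 ± 0.16 (adjusted p = 3.1e-07), while the other kept probes differed by 0.06 to 0.91. Tead1, the DNA-binding partner of YAP, stood at 10.29, 10.27 and 10.64 at E11.5 and 9.23, 9.12 and 9.19 at E16.5. It fell by 1.22 ± 0.21 (adjusted p = 3.4e-04). Among nuclear receptors 12 of 34 members rose and 7 fell (median difference 0.03). Pparg, a receptor of fat cells and capillary endothelium, was at least 2.49-fold higher (adjusted p = 1.3e-06), and the bile acid receptor gene Nr1h4 fell by 1.02 ± 0.12 (adjusted p = 8.7e-06). Forkhead genes had 2 risen and 4 fallen of 18 members (median difference 0.01), with Foxo1 up by 1.01 ± 0.12 (adjusted p = 1.5e-05), while the other kept probe differed by 0.22. The numbered Zfp genes, a large set of zinc finger genes with few known roles, had 12 risen and 44 fallen of 216 members (median difference -0.06), against 20 and 27 with cyclic loess. Zfp385b fell most, by 1.59 ± 0.09 (adjusted p = 1.4e-08).

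**Figure D3:**
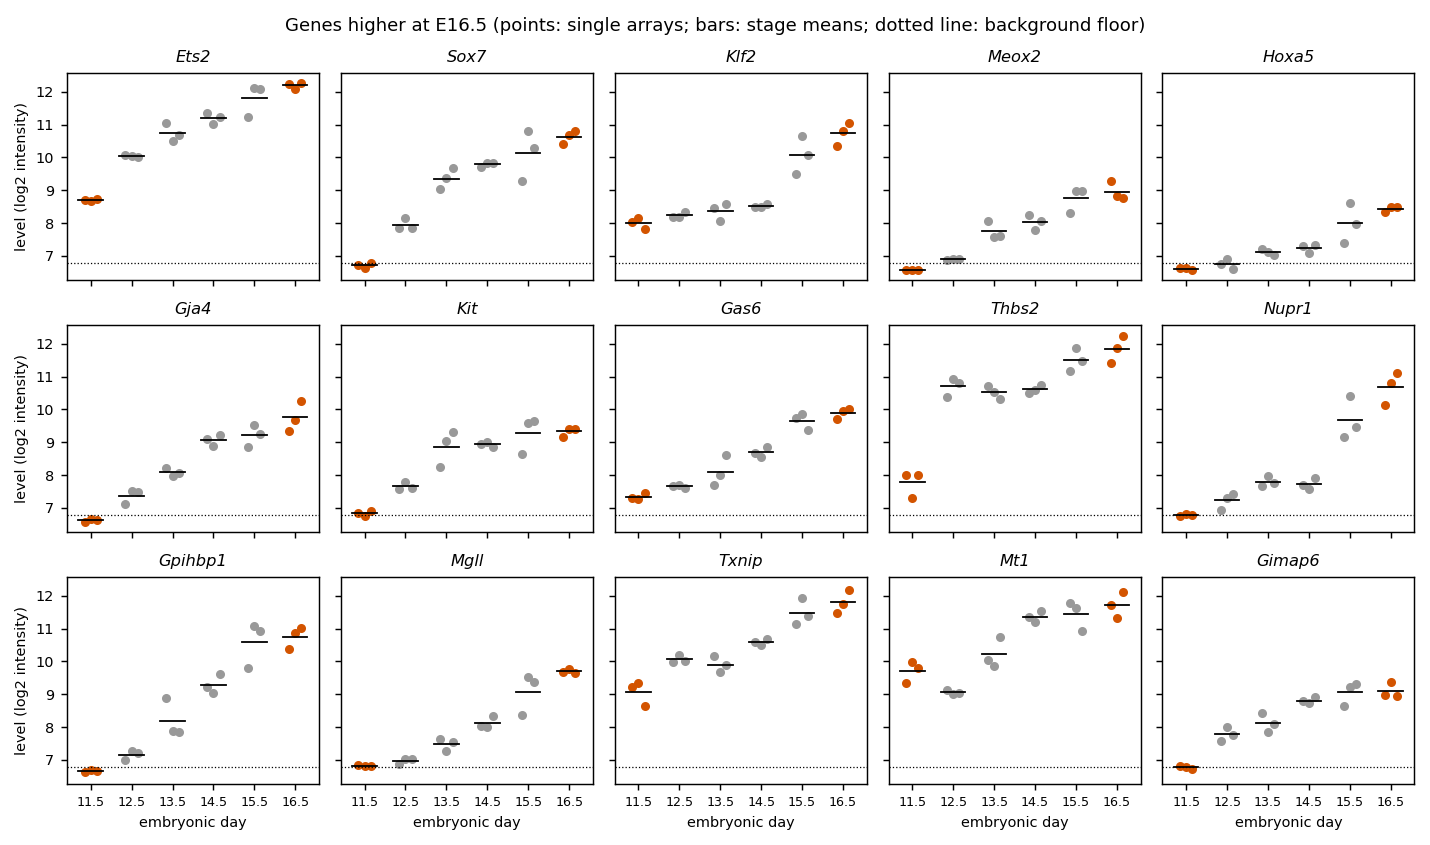
Level (log2 intensity, vertical axis) of 15 genes that were higher at E16.5, by embryonic day (horizontal axis), 1 point an array, with the stage mean as a bar and the background floor of 6.77 as a dotted line; E11.5 and E16.5 are orange and the days between grey. All 3 E16.5 points lie above all 3 E11.5 points in each panel, as the rule for naming genes required. Sox7, Meox2, Hoxa5, Gja4, Kit, Nupr1, Gpihbp1, Mgll and Gimap6 start at or near the floor.

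Genes of chromatin and of RNA and protein synthesis mostly fell where they were called, few of them by 2-fold or more. Of the Polycomb, DNA methylation and TET genes 2 of 32 members rose and 12 fell (median difference -0.24, 1 rose without E11.5 replicate 1 or 2 or without E16.5 replicate 2 or 3); with cyclic loess 3 rose and 8 fell. Ezh2, the Polycomb methyltransferase, stood at 9.24, 9.48 and 9.23 at E11.5 and 8.65, 8.60 and 8.30 at E16.5. It fell by 0.80 ± 0.11 (adjusted p = 3.8e-05), and Mtf2, which recruits it, fell by 0.77 ± 0.13 (adjusted p = 3.0e-04). Cbx2 of the other Polycomb complex fell by 0.69 ± 0.13 (adjusted p = 7.7e-04), and its relative Cbx6 rose by 0.72 ± 0.15 (adjusted p = 0.0016). Among histone deacetylases, demethylases and methyltransferases 5 of 74 members rose and 18 fell (median difference -0.13, 3 rose without E11.5 replicate 1 or 2 or without E16.5 replicate 1, with cyclic loess 6 rose and 12 fell), with the arginine methyltransferase gene Prmt1 down by 0.90 ± 0.08 (adjusted p = 4.1e-07) and the class IIa deacetylase gene Hdac7 of endothelium up by 0.88 ± 0.22 (adjusted p = 0.0056). For chromatin remodellers 4 of 47 members rose and 18 fell (median difference -0.10, 2 rose without E11.5 replicate 1 or 3 or without E16.5 replicate 2). In that family the catalytic subunit gene Smarca2 rose by 1.10 ± 0.12 (adjusted p = 7.0e-06) on its brightest probe, but its other kept probes differed by -0.06 and 0.12, and Smarcd3, a heart-enriched subunit, fell by 0.90 ± 0.13 (adjusted p = 8.8e-05). Among HMG proteins and histones 3 of 24 members rose and 5 fell (median difference -0.14, 2 fell without E11.5 replicate 1 or 2 or without E16.5 replicate 2 or 3, 3 fell without E16.5 replicate 1). With cyclic loess 4 rose and 2 fell (median difference -0.07 against 0.01 for all genes), so the balance of the counts depends on the scaling. The linker histone gene H1f2, near-identical to its relatives, rose by 1.38 ± 0.22 (adjusted p = 1.6e-04).

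In the ribosome biogenesis family 0 of 64 members rose and 25 fell (median difference -0.22); with cyclic loess 0 rose and 16 fell. Nop58 and Nop56, which guide methylation of ribosomal RNA, stood at 10.79, 10.78 and 11.14 at E11.5 and 10.39, 10.03 and 10.03 at E16.5 and at 8.38, 8.65 and 8.56 at E11.5 and 7.87, 8.0 and 7.85 at E16.5, and fell by 0.75 ± 0.12 (adjusted p = 1.4e-04) and 0.63 ± 0.12 (adjusted p = 0.0011). Cytosolic tRNA synthetases had 2 risen and 10 fallen of 20 members (median difference -0.23, 1 rose without E11.5 replicate 1 or 2 or without E16.5 replicate 2 or 3), and with cyclic loess 2 rose and 6 fell. Qars, which charges glutamine tRNA, fell by 0.67 ± 0.10 (adjusted p = 8.2e-05). For splicing factors 1 of 75 members rose and 24 fell (median difference -0.26, 0 rose without E11.5 replicate 1 or 3 or without E16.5 replicate 2), and with cyclic loess 1 rose and 15 fell. Lsm4 and Snrpd2, components of the spliceosome core, fell by 0.80 ± 0.14 (adjusted p = 4.3e-04) and 0.66 ± 0.13 (adjusted p = 8.4e-04) from levels of 11.76 and 11.80. Among DEAD box helicases 2 of 38 members rose and 16 fell (median difference -0.21), and with cyclic loess 2 rose and 7 fell. Only Ddx25 fell at least 2-fold. It is best known from the testis, stood at 9.91, 9.92 and 10.003 at E11.5 and 7.64, 7.68 and 7.92 at E16.5 and fell by 2.20 ± 0.18 (adjusted p = 3.5e-07). Translation factors had 2 risen and 12 fallen of 56 members (median difference -0.14). With cyclic loess 4 rose and 4 fell (median difference -0.05 against 0.01 for all genes). The balance of their counts thus depends on the scaling, while their median lay under that of all genes either way. Eif4e3, a minor cap-binding protein, rose by 0.83 ± 0.07 (adjusted p = 3.5e-07). The changes of these 5 families are below 2-fold, apart from that of Ddx25.

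RNA-binding regulators of development gave 9 risen and 16 fallen of 70 members (median difference -0.08), and with cyclic loess 10 rose and 11 fell. Igf2bp1 and Igf2bp3, oncofetal binders of growth factor messages, were the members with at least 2-fold falls. Igf2bp1 stood at 10.28, 10.04 and 10.30 at E11.5 and 8.41, 8.23 and 8.54 at E16.5. It fell by 1.81 ± 0.25 (adjusted p = 5.2e-05). Igf2bp3 stood at 11.70, 11.58 and 11.60 at E11.5 and 10.09, 10.12 and 9.99 at E16.5. It fell by 1.56 ± 0.18 (adjusted p = 7.1e-06).

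Metabolic families were split by pathway. Enzymes that supply serine, 1-carbon units, polyamines and nucleotides mostly fell where they were called: 4 of 52 members rose and 22 fell (median difference -0.23). Gldc, the glycine decarboxylase, stood at 8.01, 7.86 and 7.71 at E11.5 and 6.81, 6.82 and 6.75 at E16.5. It fell by 1.07 ± 0.08 (adjusted p = 1.2e-07, 2 of 3 E16.5 arrays above the floor) to near the floor, and the nucleotide pool enzyme gene Dctpp1 fell by 1.03 ± 0.22 (adjusted p = 0.0016). Against this, Upp1, which breaks down uridine, stood at 6.84, 6.88 and 6.93 at E11.5 and 9.46, 9.39 and 9.09 at E16.5. It rose by 2.43 ± 0.19 (adjusted p = 2.3e-07). In the amino acid family 4 of 23 members rose and 6 fell (median difference -0.12). Gpt2, the mitochondrial alanine transaminase, stood at 8.99, 9.15 and 9.20 at E11.5 and 7.20, 7.32 and 7.40 at E16.5. It fell by 1.81 ± 0.12 (adjusted p = 4.3e-08), with most of the fall by E13.5, and the creatine kinase gene Ckb rose by 1.09 ± 0.15 (adjusted p = 3.7e-05), with its highest value on E16.5 replicate 1, the array with raised cardiomyocyte markers. Cholesterol genes gave 3 risen and 6 fallen of 28 members (median difference -0.06), all below 2-fold.

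Genes of fatty acid uptake, storage and oxidation had 15 risen and 11 fallen of 60 members (median difference 0.04, with cyclic loess 17 rose and 8 fell). Gpihbp1, which anchors lipoprotein lipase to capillary endothelium, went from no E11.5 array above the floor to 10.37, 10.87 and 11.02, at least 15.8-fold higher (adjusted p = 1.9e-07). Mgll, the lipase that ends triglyceride breakdown, stood at 6.85, 6.80 and 6.81 at E11.5 and 9.68, 9.78 and 9.64 at E16.5 and rose by 2.88 ± 0.21 (adjusted p = 1.4e-07), and Pnpla2, the lipase that starts it, rose by 1.11 ± 0.13 (adjusted p = 7.0e-06). Fabp3, the fatty acid binding protein of heart muscle, stood at 8.0, 7.77 and 8.24 at E11.5 and 11.57, 10.30 and 10.42 at E16.5. It rose by 2.76 ± 0.42 (adjusted p = 1.1e-04). Its value on E16.5 replicate 1 was the highest, the array on which cardiomyocyte markers were raised, and without that array it was 2.36 (adjusted p = 6.2e-04). Acot1, an acyl-CoA thioesterase with near-identical relatives, stood at 11.15, 11.38 and 11.03 at E11.5 and 9.23, 9.32 and 9.35 at E16.5. It fell by 1.89 ± 0.16 (adjusted p = 3.5e-07). In the lipid mediator family 7 of 35 members rose and 7 fell (median difference -0.06, 4 fell without E11.5 replicate 1 or 2 or without E16.5 replicate 1), and with cyclic loess 11 rose and 3 fell. Plpp1, a lipid phosphate phosphatase, rose by 2.12 ± 0.13 (adjusted p = 2.0e-08) on its brightest probe, while the other kept probes differed by 0.42 to 0.63, the neutral ceramidase gene Asah2 by 1.65 ± 0.12 (adjusted p = 9.9e-08), while the other kept probe differed by 0.09, and Alox12 was at least 2.87-fold higher (adjusted p = 2.1e-06). Plppr5, a brain-enriched relative of the lipid phosphatases, stood at 8.65, 8.63 and 8.76 at E11.5 and 6.71, 6.72 and 6.84 at E16.5 and fell by 1.93 ± 0.06 (adjusted p = 6.9e-11, 1 of 3 E16.5 arrays above the floor) to near the floor.

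For enzymes of detoxification and redox control 29 of 133 members rose and 23 fell (median difference 0.01), and with cyclic loess 34 rose and 13 fell. Txnip, which binds thioredoxin and limits glucose uptake, stood at 9.23, 9.33 and 8.65 at E11.5 and 11.49, 11.75 and 12.18 at E16.5. It rose by 2.73 ± 0.22 (adjusted p = 2.5e-07). The sulphotransferase gene Sult1a1 rose by 1.77 ± 0.24 (adjusted p = 3.5e-05), and Gstm1, a glutathione transferase with near-identical relatives, by 1.36 ± 0.08 (adjusted p = 2.0e-08), while the other kept probe differed by -0.01. In the family of metal genes 6 of 33 members rose and 3 fell (median difference 0.01, 1 fell without E16.5 replicate 3, with cyclic loess 9 rose and 1 fell). Mt1, a metallothionein that glucocorticoids and metals induce, stood at 9.33, 9.98 and 9.79 at E11.5 and 11.73, 11.31 and 12.11 at E16.5. It rose by 2.01 ± 0.26 (adjusted p = 2.6e-05), and it was lower at E12.5 (mean 9.06) than at E11.5.

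Sugar chains showed changes in single enzymes. Among glycosyltransferases 20 of 75 members rose and 17 fell (median difference -0.01, 11 fell without E11.5 replicate 2, with cyclic loess 22 rose and 10 fell). Mfng, which modifies Notch receptors, was at least 2.75-fold higher (adjusted p = 5.5e-06), and the polysialyltransferase gene St8sia4 rose by 1.49 ± 0.13 (adjusted p = 8.3e-07, 1 of 3 E11.5 arrays above the floor), while the other kept probe differed by 0.50. In heparan and chondroitin sulphate enzymes 11 of 39 members rose and 6 fell (median difference 0.03). The sulphotransferases of heparan sulphate changed in opposite directions: Hs3st1 stood at 7.53, 7.53 and 7.62 at E11.5 and 8.91, 9.04 and 9.18 at E16.5 and rose by 1.49 ± 0.13 (adjusted p = 6.0e-07), while Hs6st2 stood at 9.28, 9.06 and 9.03 at E11.5 and 7.82, 7.46 and 7.55 at E16.5. It fell by 1.51 ± 0.14 (adjusted p = 1.2e-06), and Hs3st3b1 fell by 1.14 ± 0.07 (adjusted p = 2.0e-08). Chst1, which sulphates keratan sulphate and ligands of selectins, rose by 1.56 ± 0.19 (adjusted p = 1.4e-05), Chst7 was at least 2.61-fold higher (adjusted p = 1.8e-06), and Papss2, which makes the sulphate donor, rose by 1.05 ± 0.11 (adjusted p = 3.8e-06), while the other kept probe differed by 0.05.

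Families of surface and calcium-binding proteins had many risen members. Of the annexins, S100 proteins and galectins 13 of 28 members rose and 0 fell (median difference 0.19), and 9 of those that rose did so at least 2-fold. Lgals7, a galectin of stratified epithelia, stood at 7.40, 7.35 and 7.48 at E11.5 and 9.25, 10.05 and 9.90 at E16.5. It rose by 2.32 ± 0.25 (adjusted p = 4.3e-06), reaching 50% only at E16.5. S100a1, a calcium sensor of heart muscle, rose by 1.51 ± 0.21 (adjusted p = 6.0e-05), S100a16 by 1.42 ± 0.14 (adjusted p = 2.0e-06), and Lgals3, a galectin of macrophages and fibroblasts, by 1.37 ± 0.15 (adjusted p = 4.6e-06, 1 of 3 E11.5 arrays above the floor), all from low levels. Ahnak, a giant scaffold protein that binds an S100 and annexin pair, was bright at 10.55, 10.47 and 10.51 at E11.5 and 11.40, 11.69 and 11.84 at E16.5 and rose by 1.13 ± 0.17 (adjusted p = 8.8e-05). Among tetraspanins, which organise surface complexes, 11 of 20 members rose and 2 fell (median difference 0.30). Cd9 stood at 7.54, 7.62 and 7.33 at E11.5 and 8.73, 9.06 and 9.03 at E16.5. It rose by 1.45 ± 0.14 (adjusted p = 1.3e-06), Tspan18, which supports calcium entry in endothelium, rose by 1.47 ± 0.14 (adjusted p = 1.7e-06), and Tspan32 of blood cells fell by 1.25 ± 0.06 (adjusted p = 3.8e-09, 2 of 3 E16.5 arrays above the floor), while the other kept probe differed by -0.01.

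Genes best known from neurons were among the larger falls. In the leucine-rich repeat and neuronal adhesion family 9 of 66 members rose and 16 fell (median difference -0.01). The FLRT genes, fibronectin and leucine-rich receptors that bind latrophilins and UNC5 proteins, moved in opposite directions. Flrt3 stood at 9.97, 10.02 and 10.65 at E11.5 and 7.73, 7.70 and 8.07 at E16.5. It fell by 2.38 ± 0.21 (adjusted p = 6.6e-07). Flrt1 stood at 6.85, 6.92 and 6.80 at E11.5 and 8.77, 9.16 and 9.39 at E16.5 and rose by 2.25 ± 0.23 (adjusted p = 3.4e-06), while the other kept probe differed by 0.54. Tenm3, a teneurin and partner of latrophilins, stood at 9.70, 9.59 and 9.86 at E11.5 and 7.72, 7.87 and 7.99 at E16.5. It fell by 1.86 ± 0.11 (adjusted p = 2.4e-08), and Unc5c, a netrin receptor outside the families, fell by 1.79 ± 0.10 (adjusted p = 1.4e-08).

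Of the genes of neuronal differentiation 8 of 51 members rose and 14 fell (median difference -0.03), and 6 of the falls were at least 2-fold. They include the imprinted genes Nnat, at 8.62, 9.04 and 8.60 at E11.5 and 7.0, 7.31 and 7.37 at E16.5, and Peg3, at 13.15, 13.08 and 13.21 at E11.5 and 11.68, 11.97 and 12.38 at E16.5, which fell by 1.53 ± 0.12 (adjusted p = 1.8e-07) and 1.14 ± 0.17 (adjusted p = 1.2e-04). Calb2, the calretinin gene and also a mesothelial marker, fell to background and was at least 3.87-fold lower (adjusted p = 1.5e-08), though the other kept probe differed by -0.11. Dpysl3, a growth cone gene, rose by 1.76 ± 0.20 (adjusted p = 7.2e-06) and the synaptophysin relative Sypl by 1.0 ± 0.09 (adjusted p = 6.4e-07).

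The other 3 falls belong to the brain-expressed X-linked (BEX) genes, small proteins of one cluster on the X chromosome. Bex2 stood at 9.94, 10.21 and 9.96 at E11.5 and 7.61, 7.94 and 7.71 at E16.5. It fell by 2.28 ± 0.20 (adjusted p = 5.9e-07). Bex4 stood at 11.46, 11.63 and 11.65 at E11.5 and 10.51, 10.10 and 10.37 at E16.5 and fell by 1.25 ± 0.18 (adjusted p = 7.2e-05), and Bex3 stood at 11.82, 11.96 and 11.96 at E11.5 and 10.93, 10.83 and 10.79 at E16.5. It fell by 1.06 ± 0.14 (adjusted p = 2.4e-05). No array of E16.5 reached the E11.5 range of any of them, but the rule for naming genes required this. Bex1 stayed near the floor, with means of 6.75 and 6.78 and a difference of 0.03 ± 0.05 (adjusted p = 0.70). The sequences before their starts are shown because they fall into 2 pairs. Before the starts, Bex2 and Bex3 share an identical run of 145 bases, Bex1 and Bex4 one of 221 bases, and no other pair of BEX genes shares more than 9. Only bases before the starts were compared. The long runs reach the starts of Bex2 and Bex1, so the identity may extend further. Each long run was found in no other gene of the RefSeq table. Capitals mark the shared run within 200 bases before each start.
Bex2: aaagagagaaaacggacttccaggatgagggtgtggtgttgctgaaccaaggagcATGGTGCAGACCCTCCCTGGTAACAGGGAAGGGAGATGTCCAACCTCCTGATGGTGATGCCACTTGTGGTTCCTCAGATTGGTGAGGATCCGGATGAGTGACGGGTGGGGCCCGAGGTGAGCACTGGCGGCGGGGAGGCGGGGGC
Bex3: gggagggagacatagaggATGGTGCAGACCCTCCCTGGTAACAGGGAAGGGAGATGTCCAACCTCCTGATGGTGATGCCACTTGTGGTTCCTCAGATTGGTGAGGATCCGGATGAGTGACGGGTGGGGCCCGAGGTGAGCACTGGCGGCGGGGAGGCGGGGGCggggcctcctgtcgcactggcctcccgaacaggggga
Bex1: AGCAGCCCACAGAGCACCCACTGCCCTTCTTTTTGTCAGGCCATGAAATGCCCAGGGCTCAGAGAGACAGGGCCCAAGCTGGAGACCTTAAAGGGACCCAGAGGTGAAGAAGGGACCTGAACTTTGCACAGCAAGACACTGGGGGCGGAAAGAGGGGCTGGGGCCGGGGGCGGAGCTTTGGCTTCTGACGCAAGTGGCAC
Bex4: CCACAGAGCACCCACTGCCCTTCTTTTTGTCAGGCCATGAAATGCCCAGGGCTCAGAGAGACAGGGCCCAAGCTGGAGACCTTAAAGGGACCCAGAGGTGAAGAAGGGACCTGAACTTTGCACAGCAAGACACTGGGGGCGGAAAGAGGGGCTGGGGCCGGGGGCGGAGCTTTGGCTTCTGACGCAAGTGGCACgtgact
They lie at chrX:136068237-136068436 (minus strand), chrX:136270053-136270252 (plus), chrX:136215514-136215713 (minus) and chrX:136138796-136138995 (plus) of GRCm38.p6. Both genes of the first pair fell, by unequal amounts, whereas in the second pair Bex4 was bright and Bex1 near the floor on the same arrays. Levels of different probes are not compared beyond being well above or near the floor.

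**Figure D4:**
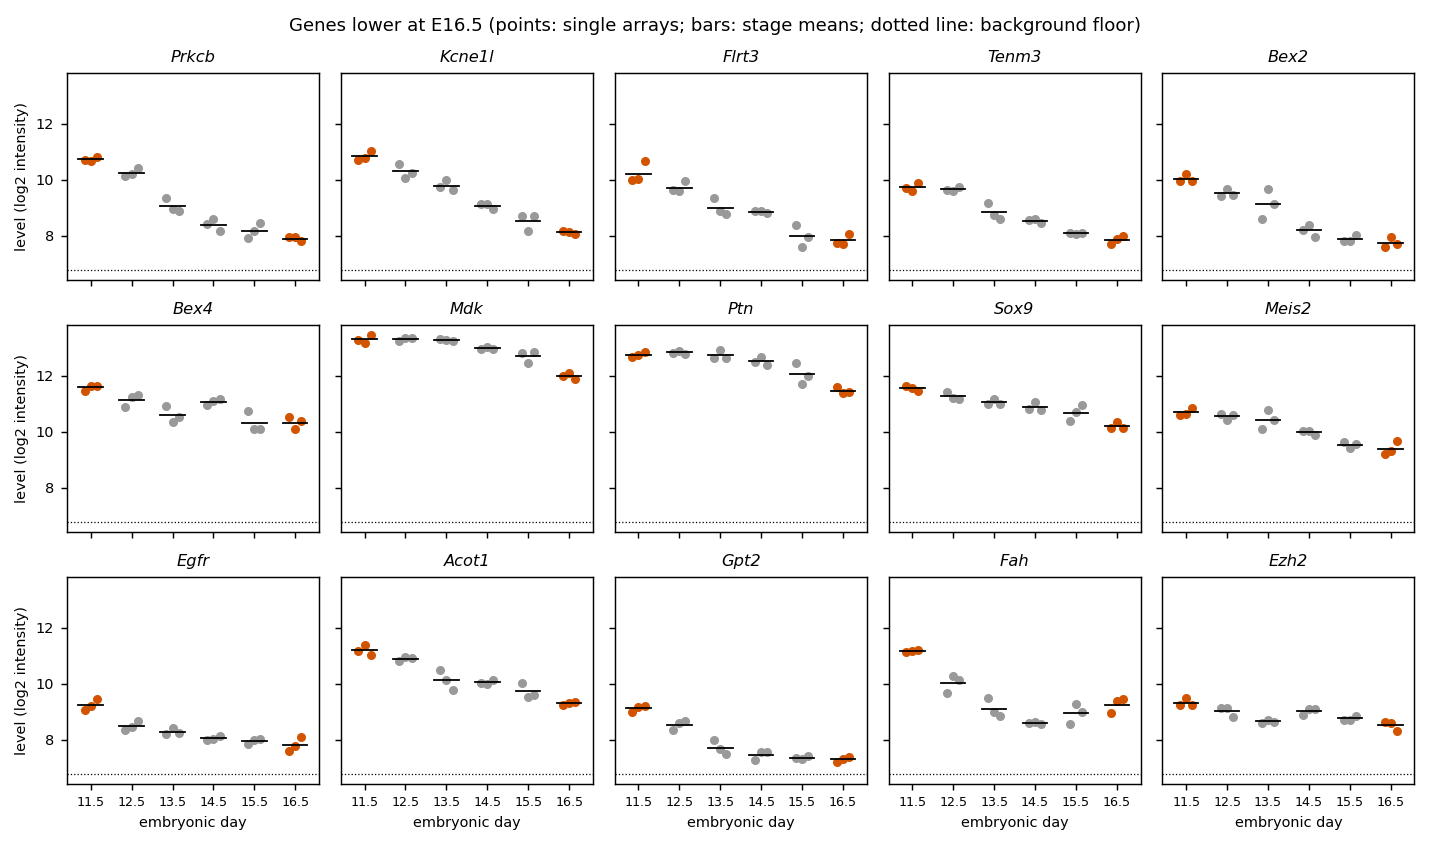
Level (log2 intensity, vertical axis) of 15 genes that were lower at E16.5, by embryonic day (horizontal axis), drawn as in the plot of genes higher at E16.5. All 3 E16.5 points lie under all 3 E11.5 points in each panel, as the rule for naming genes required. Mdk and Ptn stay near their E11.5 level until E13.5, while Fah and Gpt2 are low by E13.5.

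Among lysosomal genes 19 of 59 members rose and 3 fell (median difference 0.11). Laptm5, a lysosomal membrane protein of blood cells and also a leukocyte marker, was at least 4.69-fold higher (adjusted p = 4.2e-07). The hydrolase genes Arsb, Man2b1 and Ctsk rose by 1.57 ± 0.16 (adjusted p = 2.4e-06), 1.10 ± 0.18 (adjusted p = 2.8e-04) and 1.05 ± 0.08 (adjusted p = 2.4e-07, 2 of 3 E11.5 arrays above the floor), and for Arsb the other kept probe differed by 0.07. Genes of folding and secretion in the endoplasmic reticulum gave 8 risen and 4 fallen of 56 members (median difference 0.06, 2 fell without E11.5 replicate 1 or without E16.5 replicate 1 or 2, with cyclic loess 13 rose and 2 fell), all below 2-fold, with the retrieval receptor gene Kdelr3 up by 0.91 ± 0.11 (adjusted p = 2.0e-05) and the collagen hydroxylase gene Plod1 by 0.73 ± 0.09 (adjusted p = 1.4e-05). Among secreted protease inhibitors 9 of 23 members rose and 2 fell (median difference 0.21). Timp2 stood at 8.77, 8.82 and 9.20 at E11.5 and 10.27, 10.61 and 10.84 at E16.5. It rose by 1.64 ± 0.21 (adjusted p = 2.5e-05), Timp3 rose by 1.08 ± 0.11 (adjusted p = 3.1e-06), while the other kept probes differed by 0.01 to 0.20, and Serping1, the complement inhibitor, by 1.07 ± 0.26 (adjusted p = 0.0053).

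For myosins, septins, formins and LIM proteins 19 of 62 members rose and 9 fell (median difference 0.08). The LIM-only factor gene Lmo2 and its partner Ldb2, parts of a complex of blood and endothelial regulators, rose. Lmo2 stood at 6.85, 6.68 and 7.10 at E11.5 and 10.01, 10.37 and 10.23 at E16.5 and rose by 3.33 ± 0.20 (adjusted p = 1.7e-08, 2 of 3 E11.5 arrays above the floor), and Ldb2 rose by 2.64 ± 0.27 (adjusted p = 2.9e-06). The motor gene Myo5b rose by 2.44 ± 0.28 (adjusted p = 7.9e-06, 1 of 3 E11.5 arrays above the floor), while the other kept probes differed by 0.22 to 0.40, Limch1 by 2.35 ± 0.19 (adjusted p = 3.3e-07), and Lims2, an adaptor of integrin adhesions, by 1.99 ± 0.19 (adjusted p = 1.2e-06). Pdlim2 fell by 1.13 ± 0.12 (adjusted p = 3.4e-06). Microtubule genes had 8 risen and 14 fallen of 72 members (median difference -0.03, 5 rose without E11.5 replicate 2), but with cyclic loess 10 rose and 9 fell; Tubb2b rose by 0.46 ± 0.07 (adjusted p = 1.6e-04) and Tubb4a fell by 0.80 ± 0.08 (adjusted p = 3.8e-06). The family of TRIM proteins and other genes of ubiquitin transfer had 27 risen and 33 fallen of 256 members (median difference -0.02), but with cyclic loess 34 rose and 25 fell, and Trim25, which takes part in interferon signalling, rose by 1.35 ± 0.17 (adjusted p = 1.7e-05). Among circadian clock genes 4 of 13 members rose and 1 fell (median difference -0.0024), and Per1, which glucocorticoids also induce, stood at 7.70, 7.51 and 7.58 at E11.5 and 9.06, 9.08 and 8.69 at E16.5. It rose by 1.35 ± 0.19 (adjusted p = 5.8e-05).

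Of the genes named outside the families and marker lists, the largest rises were those of the water channel gene Aqp1, by 4.84 ± 0.26 (adjusted p = 7.6e-09), and the caveolin gene Cav1, by 4.80 ± 0.24 (adjusted p = 5.7e-09). Rbp7, a retinol-binding protein, was at least 17.4-fold higher (adjusted p = 4.3e-08), and the growth factor gene Pdgfb and the receptor gene Notch4 rose by 4.05 ± 0.35 (adjusted p = 6.0e-07, 1 of 3 E11.5 arrays above the floor) and 4.0 ± 0.24 (adjusted p = 2.0e-08). The other kept probes of Aqp1 differed by 3.27 to 4.45, the other one of Pdgfb by 0.22 and that of Notch4 by 0.27. Thbs2, a matricellular thrombospondin, stood at 8.01, 7.32 and 8.0 at E11.5 and 11.41, 11.88 and 12.25 at E16.5. It rose by 4.07 ± 0.23 (adjusted p = 1.4e-08), most of it by E12.5. Nupr1, a stress-induced nuclear protein, stood at 6.75, 6.80 and 6.78 at E11.5 and 10.14, 10.80 and 11.09 at E16.5 and rose by 3.90 ± 0.27 (adjusted p = 7.4e-08, 2 of 3 E11.5 arrays above the floor), mostly after E14.5. Mmrn2, a matrix protein of endothelium, rose by 3.96 ± 0.24 (adjusted p = 1.7e-08, 1 of 3 E11.5 arrays above the floor), the semaphorin receptor gene Plxnd1 by 3.69 ± 0.28 (adjusted p = 1.5e-07), and Mgp, an inhibitor of calcification, by 3.48 ± 0.30 (adjusted p = 5.6e-07). Aoc3, an amine oxidase of vessel walls, and Rgcc were at least 10.7-fold and 10.4-fold higher (adjusted p = 1.3e-08 and 1.3e-08). Depp1, a target of FOXO factors, rose by 3.24 ± 0.28 (adjusted p = 4.9e-07, 1 of 3 E11.5 arrays above the floor), and Dysf, a membrane repair protein, by 2.83 ± 0.14 (adjusted p = 5.7e-09, 2 of 3 E11.5 arrays above the floor), while the other kept probes differed by 0.11 to 0.87.

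Falls outside the families began with the small GTPase gene Rab32, which stood at 9.98, 10.25 and 9.999 at E11.5 and 7.44, 7.74 and 8.05 at E16.5. It fell by 2.33 ± 0.16 (adjusted p = 8.2e-08). Soga3 stood at 9.04, 9.08 and 9.05 at E11.5 and 6.77, 6.93 and 6.87 at E16.5. It fell by 2.20 ± 0.09 (adjusted p = 9.7e-10, 2 of 3 E16.5 arrays above the floor) to near the floor. Prxl2a fell by 2.01 ± 0.14 (adjusted p = 1.1e-07), and Aif1l, an actin-binding gene, fell by 1.96 ± 0.10 (adjusted p = 6.0e-09). Fah, the last enzyme of tyrosine breakdown, stood at 11.14, 11.18 and 11.21 at E11.5 and 8.94, 9.39 and 9.44 at E16.5 and fell by 1.92 ± 0.20 (adjusted p = 3.0e-06), and its means at E13.5 and E14.5 (9.10 and 8.60) were lower than at E16.5. The mitochondrial gene Mgarp fell by 1.81 ± 0.14 (adjusted p = 2.4e-07), the WAVE complex gene Wasf1 by 1.72 ± 0.10 (adjusted p = 1.3e-08) and the glutamate transporter gene Slc1a3 by 1.39 ± 0.14 (adjusted p = 2.7e-06). Dsg2, a desmosomal cadherin, fell by 1.45 ± 0.19 (adjusted p = 3.2e-05), while the other kept probes differed by -0.31 to -0.04. Epb41l5 and the polarity gene Pard6g fell by 1.61 ± 0.11 (adjusted p = 8.0e-08) and 1.48 ± 0.11 (adjusted p = 1.8e-07). Of muscle filament genes, Actn3, Myl1 and Tpm1 fell by 1.43 ± 0.18 (adjusted p = 1.9e-05), 1.42 ± 0.17 (adjusted p = 1.0e-05, 2 of 3 E16.5 arrays above the floor) and 1.41 ± 0.14 (adjusted p = 1.9e-06), while Myl2, Myl3 and Tnnc1 of the cardiomyocyte list rose by 1.26, 1.41 and 1.65 (adjusted p = 0.0080, 0.022 and 0.049). Of the 25 markers on that list 6 rose and 1 fell. The fall was that of the filament gene Myl7, with a difference of -2.15 (adjusted p = 2.7e-06). Most of the list, Myh6, Ttn and Actn2 among them, was not called. The list's sum was 81360 on E16.5 replicate 1 against 26488 and 19771 on the other E16.5 arrays.

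The share of the log2 difference that a gene's mean level had covered was followed through the 4 stages between, which share the end arrays by construction and are described without a test. Marker sums also moved on those days. The cardiomyocyte sum was 78180 to 86344 at E14.5, and at E15.5 it was 92904 on replicate 1 against 20744 and 27757 on the others. The endothelial sum at E15.5 was 16852 on replicate 1 against 36764 and 33728, and the epicardial sum at E14.5 was 5051 to 5415. Their part in the times given here was not tested. Among the 453 genes at least 2-fold higher the median gene had covered 25.7% at E12.5, 47.0% at E13.5, 59.5% at E14.5 and 85.5% at E15.5. Among the 131 at least 2-fold lower it had covered 30.8%, 60.5%, 77.1% and 93.7%. The stage from which a gene kept at least 50% of its difference was E12.5 for 47, E13.5 for 138, E14.5 for 103, E15.5 for 139 and E16.5 for 26 of the higher genes. For the lower genes the numbers were 28, 51, 26, 24 and 2. Early risers among the named genes included Nfix, Meox1, Thbs2, Tspan18, Ogn and Ramp2, and late ones included Gbp2, Lgals7, Lgals3, Klf4 and Nr4a2. Early falls included Soga3, Egfr, Gldc, Hs3st3b1 and Fah, and of the named 2-fold falls Mdk and the uncharacterised gene 6330403K07Rik were the ones that came last.

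**Figure D5:**
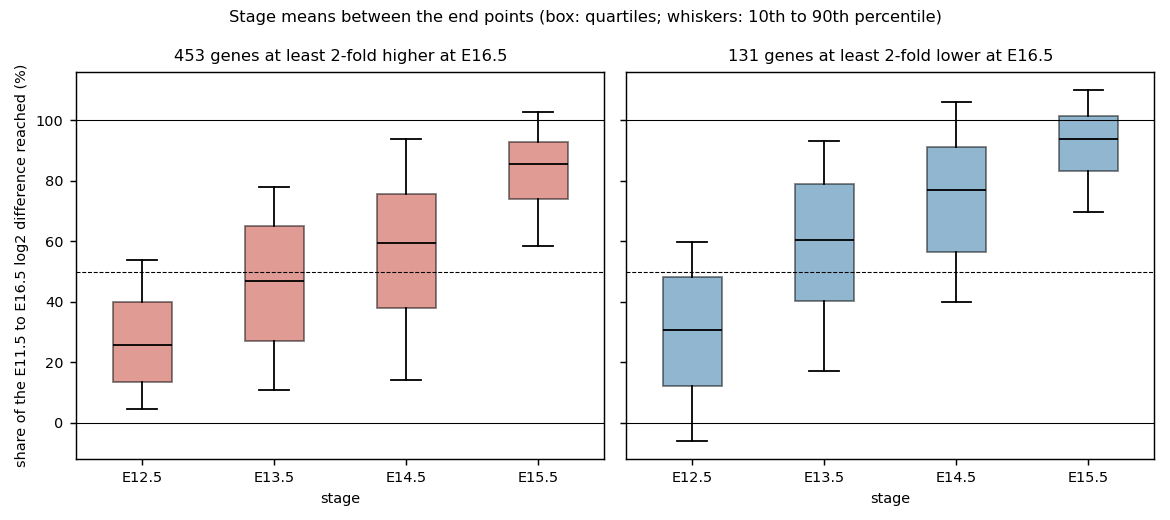
Share of the E11.5 to E16.5 log2 difference (percent, vertical axis) that the stage mean had reached at each day between (horizontal axis), over the 453 genes at least 2-fold higher (left) and the 131 at least 2-fold lower (right). Boxes show quartiles and median, whiskers the 10th to 90th percentile; the dashed line is at 50%, and the medians reach 47.0% and 60.5% at E13.5.

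Promoters of the genes with 2-fold differences held fewer CpG than those of all genes tested. The RefSeq table held the window from 250 bases before to 50 after the start for 337 of the 453 higher genes, 105 of the 131 lower genes and 8738 of the 10813 tested. The median window held 15 CpG in the higher genes and 14 in the lower against 21 in all, at a G and C content of 60.3%, 60.3% and 61.0%. At least 15 CpG were in 52.8%, 49.5% and 69.6%. The letters CCGGAAG of an ETS site were in 3.56% of the higher, 8.57% of the lower and 17.5% of all promoters, on both strands counted. TGANTCA of an AP-1 site was in 9.20%, 1.90% and 4.63%, TATAAA in 13.4%, 7.62% and 7.78%, and the E-box CACGTG in 5.34%, 12.4% and 10.3%. CCGGAAG and CACGTG each contain a CpG, while TGANTCA and TATAAA contain none. The part of CpG content in these shares was not tested. They are descriptions of letters in a window, given without a test.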

How the data were processed

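Total RNA of sorted cells was hybridised to Illumina bead arrays, 18 in all, of which the 3 of E11.5 and the 3 of E16.5 are compared. The deposited values are probe intensities that the authors had normalised on a linear scale. GenomeStudio 2011.1 is named in the submitters' processing notes, and the sources used here do not give the normalisation method. The sorted values of any 2 arrays differed by at most 2.04, so the arrays share 1 distribution, and background had not been subtracted, with a mode of 99.2. The bead count and the depth per probe are not known, and the number of arrays limits the precision. A second table holds 36 columns of signals and detection p-values before normalisation whose names match no sample label. They were not used.

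Intensities were taken to log2. The floor, 109 or 6.77 on the log2 scale, is the level that background noise passes with probability 0.01, with the noise estimated from values under the mode. Probes above it on at least 3 arrays were kept (19967 of 45281), and each gene was represented by its brightest kept probe with 1 gene symbol in GEO's platform annotation, checked against RefSeq. Another 3064 kept probes have no single symbol and were left out. The 6 stage means were fitted to all 18 arrays with limma 3.58.1 in R 4.3.3 (lmFit, contrasts and eBayes), with jsonlite 2.0.0 for reading. The contrast was E16.5 minus E11.5, and a gene was called at a Benjamini-Hochberg adjusted p under 0.05. The procedure was tested on simulated data.

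The comparison, the 57 families and the marker lists were chosen with earlier results of these data known. Some families follow symbol stems and hold members that share only the stem. Genes were named by a rule: up to 6 per direction and family, and 25 rises and 25 falls outside, with the largest differences among 2-fold calls that did not overlap and stayed called without each array and with the replicate number as a block. Families short of these added smaller calls. The rule picked 349 genes, which are called the named genes, and the text describes only some of them. The lack of overlap between the stages in named genes, and their stability under those settings, are thus by construction. All 584 genes with a 2-fold difference were without overlap. Bex1 is named outside the rule, after its values were seen.

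Arrays with the same replicate number at E11.5 and E16.5 deviated together from their stage means (Pearson's r across genes of 0.25, 0.29 and 0.21, against -0.18 to -0.05 for other pairs), so the fit with the replicate number as a block was run as an alternative. Others changed the background, the scaling, the filter, the probe, the arrays in the fit and the test. Promoter sequences are RefSeq's (GRCm38.p6), with the first listed window of a gene. 1 of the 57 families is not reported here.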

Additional observations from a re-analysis of the deposited data

How the results depend on the processing

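The 4 counts of called genes stayed within 1.5 times of the reported ones under most settings. With normexp and an offset of 16, 825 genes were at least 2-fold higher and 337 at least 2-fold lower, and with an offset of 50, 209 were at least 2-fold lower, since taking background out widens the log2 differences of dim genes. Testing against a 2-fold null left 173 higher and 32 lower. Leaving out 1 array gave 1485 to 1685 higher and 1634 to 1759 lower genes, of which 433 to 471 and 136 to 146 at least 2-fold. With the replicate number as a block there were 1870 higher and 2256 lower genes (457 and 131 at least 2-fold). No named gene lost its call with the block or with 1 array left out, but the rule for naming genes required this. Cyclic loess moved the balance to 2123 higher and 1401 lower, and the tRNA synthetase gene Aars and the translation genes Eif2b1 and Eif4a3 lost their calls (adjusted p = 0.064, 0.089 and 0.18). The other 346 of the 349 named genes kept theirs, and no named gene changed direction in any setting. Of 114 counts of family members, 23 moved by more than 1.5 times with cyclic loess, 22 with array weights, 7 with only the 6 arrays, 7 with the first replicates of E15.5 and E16.5 both left aside and 2 with the replicate block. Signal over background limits the dim genes: 37.1% of all values lie above the floor, and of the named genes 40 were under it on all arrays of the dimmer stage.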

Other observations

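Of the 349 named genes 183 had other kept probes, and for 123 of these at least 1 other probe moved by less than 50% of the change of the brightest. For 7 genes another probe had the opposite sign: Wdr92 (3.27 on the brightest probe against -0.16), Gstm1 (1.36 against -0.01), Smarca2 (1.10 against -0.06 on 1 of its other probes), Clock (0.74 against -0.02), Zfp710 (0.46 against -0.01), Gars (0.31 against -0.06) and Foxp3 (-0.37 against 0.02). The probe annotation does not say which transcripts these probes share.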
